A study of Mus musculus with 14 samples.

Results

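The transcriptomes of cloned mouse embryos that received vitamin C late in the one-cell stage were set against those of cloned embryos that received no drug. All embryos were made by somatic cell nuclear transfer (SCNT), in which the nucleus of a B6D2F1 cumulus cell, a follicle cell that surrounds the oocyte, is placed in an oocyte whose own chromosomes have been removed. The VC(8-15 h) group held 2 embryos, cultured with 10 µg/ml vitamin C (VC) from 8 to 15 h after the start of activation and never exposed to trichostatin A (TSA). The Control group held 3 embryos given neither VC nor TSA. Both groups shared activation with strontium chloride and cytochalasin B and culture medium with deionized bovine serum albumin, and single embryos were taken as two-cell embryos, with activation 28 h earlier. These 5 embryos are 5 of the 14 sequenced. A transcript entered the comparison when 2 or more of the 5 embryos, from either group, had it at 1 RPKM (a read count scaled to transcript length and sequencing depth), which held for 6283 of the 25650 RefSeq entries. Neither the labels nor the study's text says whether the embryos of these 2 groups came from separate nuclear transfer experiments. At the edge of that rule, Csf1 (NM_001113530) was kept with a second-highest value of 1.00 RPKM and Drg1 (NM_007879) was left out at 0.998 RPKM.

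Vitamin C is an antioxidant and keeps iron in the reduced state that 2-oxoglutarate-dependent dioxygenases need, a family that includes the JmjC histone demethylases and the TET enzymes. TSA inhibits histone deacetylases. In the mouse, the two-cell stage is when the embryo's own genome is first transcribed on a large scale while maternal mRNAs are being destroyed, and cloned embryos often fail to switch on part of that programme, above all where the donor nucleus carried methylated H3K9. The comparison asks what late VC without TSA did to that transition.

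Between 5423162 and 13589389 reads were counted on RefSeq transcripts in the Control embryos, against 9862594 in VC replicate 1 and 6572802 in VC replicate 2. Control embryos 1, 2 and 3 had 5197, 3819 and 5439 transcripts at 1 RPKM or more (4818 ± 874, SD, n = 3). VC replicate 1 had 6342, the most of the 5 embryos, and VC replicate 2 had 3322, the fewest. The group means thus differed by only 13.7 transcripts (exact permutation test, two-sided p = 1.0; the smallest p that 2 against 3 embryos allow is 0.2). The difference, VC minus Control, was -1496 transcripts without VC replicate 1 and 1524 without VC replicate 2.

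**Figure D1:**
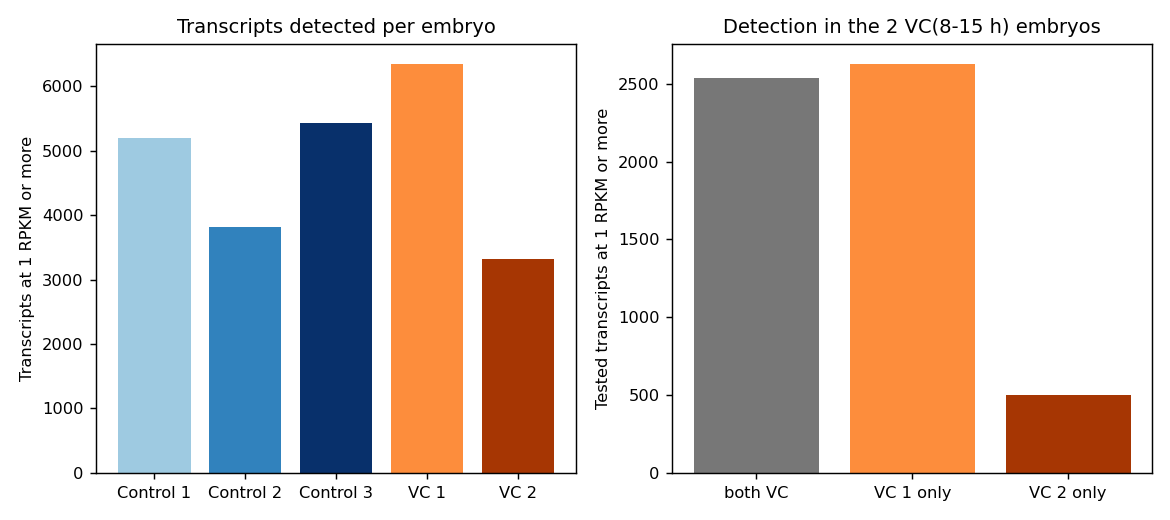
Left, number of transcripts at 1 RPKM or more in each of the 3 Control and 2 VC(8-15 h) embryos; right, number of the 6283 tested transcripts at 1 RPKM or more in both VC(8-15 h) embryos, only in replicate 1 or only in replicate 2. Bars start at 0. VC replicate 1 had 6342 transcripts and VC replicate 2 had 3322, on either side of all 3 Control embryos, and 2534 of the tested transcripts were detected in both.

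The identity of the samples was checked against marker lists. Of 15 maternal and two-cell marker genes, 11, 7 and 13 were at 1 RPKM or more in Control embryos 1, 2 and 3, and 11 and 9 in the VC embryos. Their summed level ran from 1948 to 4676 RPKM in Control and was 1514 and 1794 RPKM in the VC embryos. With VC 7 of 15 tested transcripts were higher (median log2 difference -1.48, -2.33 to -0.37 over the embryos left out). Both VC embryos lay below all Control embryos for 4 of the 15, where 7.51% of all transcripts did, and above for 0. Bmp15, an oocyte growth factor, was at 520, 91.3 and 474 RPKM in Control and at 462 and 467 RPKM with VC. Some classical oocyte genes were nevertheless listed at 0 or close to it throughout: Khdc3, H1f8 and Zar1l were at 0 in all 5 embryos, and Ooep was at 0.488 RPKM in Control replicate 3 and at 0 in the others. The 24 markers of cumulus and granulosa cells summed to 0.810 to 29.8 RPKM in Control and to 30.3 and 0.131 RPKM with VC, with Vim at 0 in every embryo, and only Serpine2 was tested (3.86, 0 and 11.4 RPKM against 3.06 and 0). The 6 matched blood markers were at 0 in all 5 embryos.

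Single embryos of one group differed widely. Actb, the cytoskeletal actin, was at 28.9, 3.16 and 43.5 RPKM in Control and at 60.3 and 417 RPKM with VC, and Ppia, a housekeeping prolyl isomerase, was listed at 0 in VC replicate 2 and at 53.2 RPKM in VC replicate 1. Between 61.4% and 67.0% of all entries were listed at 0 in each embryo. The median transcript differed by 2.78 on the log2(RPKM + 1) scale between the 2 VC embryos and by 2.04 to 2.33 between pairs of Control embryos. For a transcript listed at 0 or near it, fewer molecules in the embryo cannot be told apart from fewer recovered from its amplified RNA.

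The library labels also place the embryos in sequencing pools. Replicates 1 of both groups share a pool, replicates 2 share another, and Control replicate 3 has no VC(8-15 h) partner. Across the 6283 transcripts the rank correlation was 0.345 for the pool 1 pair and 0.449 for the pool 2 pair, against 0.286 between the 2 VC embryos and 0.189 to 0.253 between Control embryos. With the Control embryos of other pools, VC replicate 1 had 0.317 (Control replicate 3) and 0.243 (Control replicate 2), and VC replicate 2 had 0.195 and 0.186. Each VC embryo was thus most like the Control embryo of its own pool, by a small margin for VC replicate 1. The embryos differ in depth, and these values are across transcripts, not replicates. The part of the pool in single results was not tested beyond a fit with the pool as a block, and differences within each pool are given beside the main ones.

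At an adjusted p under 0.05, limma on log2(RPKM + 1) found 0 transcripts higher and 2 lower with VC(8-15 h), which is 0.0318% of those tested. The 2 were Ccdc82 and H2bc12. Before adjustment 95 transcripts (1.51%) were higher and 85 (1.35%) lower at p under 0.05. At p under 0.01 the numbers were 21 (0.334%) and 26 (0.414%), and limma-voom on the read numbers recovered from RPKM gave 3 higher and 4 lower after adjustment. Both VC embryos lay above all 3 Control embryos for 558 transcripts (8.88%) and below them for 472 (7.51%). The median difference over all transcripts was -0.00 on the log2 scale. The error of each transcript came from the trend of spread with level across all transcripts rather than from its own 5 values. The median spread within groups was 2.31 on the log2 scale (residual SD).

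Ccdc82 (NM_025534), which encodes a coiled-coil protein, was the most abundant transcript in each of the 5 embryos. It was at 12255, 14146 and 16648 RPKM in Control and at 7209 and 8739 RPKM with VC, so that it took 5.69% to 7.73% of the reads in Control and 3.35% and 4.06% with VC. The groups did not overlap. It fell by 0.84 on the log2 scale (SE 0.13, limma adjusted p = 2.3e-06), with within-pool differences of -0.77 and -0.69. The limma adjusted p rose to 0.28 without Control replicate 2 and to 0.33 with the replicate number, and so the pool, as a block. At the same difference of -0.84 it was 0.998 without the trend of spread with level, 0.86 with no filter and 0.64 with entries summed. Without VC replicate 1 the difference was -0.70.

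H2bc12 (NM_175665, mm9 chr13:22127690-22128168, plus strand) encodes a replication-dependent histone H2B. It was at 655, 885 and 826 RPKM in the Control embryos, from 1353, 2315 and 4276 reads, and at 98.2 and 2.00 RPKM with VC, from 369 and 5 reads. Control values thus lay close together while the VC embryos were both lower and far apart. The difference was -5.51 on the log2 scale (SE 1.12, limma adjusted p = 0.0027), and -2.72 and -8.21 within the pools. The call was lost without any one of Control replicate 1 (adjusted p = 0.13), Control replicate 2 (0.93), Control replicate 3 (0.22) and VC replicate 2 (0.18), and with the replicate block (0.33). Histone H2B genes are nearly identical copies of one another, so reads may be split between them. The bases before its RefSeq start (chr13:22035571-22035820, GRCm38.p6, plus strand) are shown because histone promoters of this class carry recognisable elements, with capitals marking matches to ATTTGCAT, CCAAT and TATAAA on either strand.
H2bc12: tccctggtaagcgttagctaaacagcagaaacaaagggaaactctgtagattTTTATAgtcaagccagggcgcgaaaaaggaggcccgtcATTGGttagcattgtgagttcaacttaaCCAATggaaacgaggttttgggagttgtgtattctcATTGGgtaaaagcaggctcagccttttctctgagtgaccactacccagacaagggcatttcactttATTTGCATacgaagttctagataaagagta
The octamer ATTTGCAT, the element that binds Oct1 in H2B promoters, starts 30 bases before the start and is held by 1.60% of the 32851 RefSeq windows of this length. CCAAT matched 3 times (33.8% of windows hold it) and TATAAA once, on the opposite strand and 198 bases away (12.4% of windows).

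**Figure D2:**
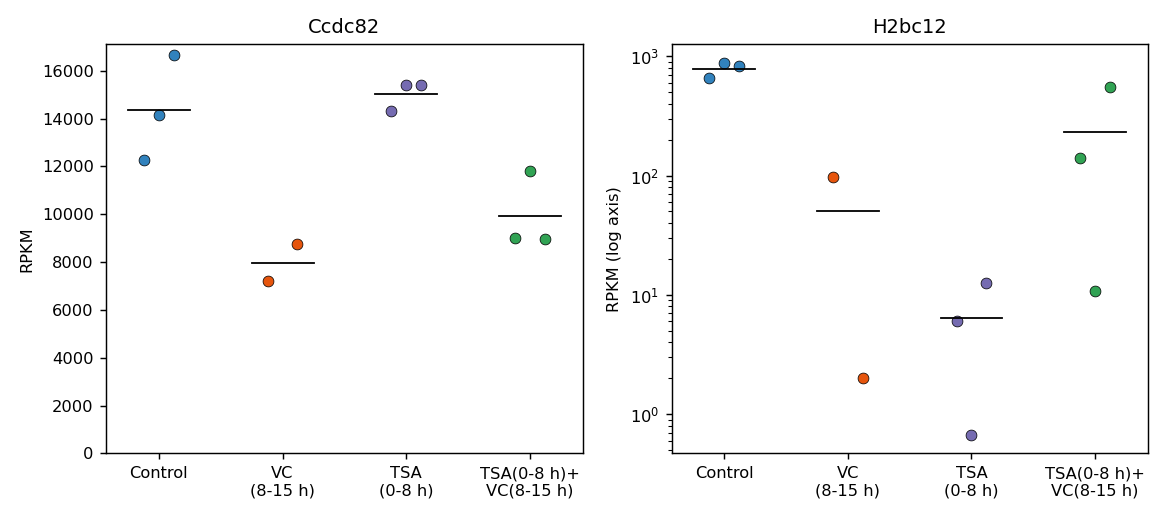
RPKM of Ccdc82 (linear axis) and H2bc12 (log axis) in each embryo of 4 groups; each point is 1 embryo and the line is the group mean. Ccdc82 was at 12255 to 16648 RPKM in Control and 7209 and 8739 with VC(8-15 h), and H2bc12 at 655 to 885 against 98.2 and 2.00.

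Among the transcripts where both VC embryos exceeded every Control embryo, the 10 with the smallest p did not pass the adjusted threshold. Psd3, an exchange factor for ARF GTPases, was at 1.07, 1.27 and 151 RPKM in Control and at 304 and 1562 RPKM with VC (log2 difference 6.27, SE 1.80, limma adjusted p = 0.31). Calm2, a calmodulin gene, was at 112, 34.0 and 33.1 RPKM against 505 and 1286 (3.98, SE 1.17, adjusted p = 0.31 by limma). Both were detected in all 5 embryos, so neither gap rests on a value of 0, but Psd3 was barely above 1 RPKM in Control embryos 1 and 2.

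The deubiquitinase gene Otud4 was at 0, 7.67 and 11.6 RPKM in Control and at 169 and 1845 with VC, and the proteasome subunit gene Psmb1 at 22.4, 3.80 and 0 against 219 and 1117. Gmnn, whose product geminin restrains replication licensing, was at 52.1, 2.98 and 0.678 RPKM against 206 and 1037. Nemp1, of the inner nuclear membrane, was at 0.243, 2.01 and 1.16 RPKM against 126 and 943. In these 4 genes VC replicate 2 was the highest embryo and VC replicate 1 the second. Where all RefSeq entries of a gene were summed, the difference shrank for Otud4 (153, 146 and 113 RPKM against 244 and 1915, log2 2.32) and Psd3 (9.60, 75.2 and 166 against 304 and 1562, log2 3.75), with the groups still apart. It also shrank for Nemp1, from 7.43 to 5.18 on the log2 scale.

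Chchd2, a mitochondrial protein gene, stood out for the evenness of its Control values: 4.86, 4.64 and 3.80 RPKM, against 191 and 619 with VC (log2 5.99, SE 2.18). Ssrp1, a subunit of the FACT histone chaperone, was at 0, 1.82 and 0 RPKM for the entry NM_001136081 and at 253 and 264 with VC, the closest agreement between the 2 VC embryos among the 10. With all entries of Ssrp1 summed, the log2 difference was 4.31, against 7.52 for this entry. Rps13, a ribosomal protein gene, was at 1.27, 1.75 and 0.506 RPKM against 152 and 692, and Rab20, a small GTPase gene, at 0, 2.82 and 1.22 against 128 and 606. For all 10 transcripts both within-pool differences were positive, as the rule that chose them requires, and ran from 1.97 (Gmnn, pool 1) to 9.43 (Psd3, pool 2).

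On the lower side, 8 further transcripts were named by the same rule, and limma gave them adjusted p from 0.16 to 0.71. Zbed3, a member of the subcortical maternal complex that oocytes store, was at 1219, 941 and 3072 RPKM in Control and at 687 and 309 with VC (log2 -1.72, SE 0.50). It was abundant in every embryo. Pum2, a repressor of maternal mRNA translation, was at 783, 486 and 409 RPKM for NM_001160220 against 364 and 3.43, and Rab7, of late endosomes, at 373, 596 and 309 against 188 and 4.63. In both, VC replicate 1 sat just under the Control range and VC replicate 2 supplied nearly all of the difference. With all entries summed, Pum2 was at 880, 581 and 545 RPKM against 457 and 189 (log2 -1.15).

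In other lower transcripts both VC embryos were far below Control. Fbxl5 NM_178729, of the iron-sensing subunit of a ubiquitin ligase, was at 463, 191 and 145 RPKM in Control and at 0.763 and 0.636 with VC (log2 -7.11, SE 2.08, limma adjusted p = 0.31). Atl2, an ER-shaping GTPase gene, was at 39.4, 1497 and 240 RPKM against 0 and 1.67 for NM_019717, and Cops9, of the COP9 signalosome, at 56.0, 1188 and 200 against 0.231 and 8.34. Prex2, a Rac exchange factor gene, was at 604, 1964 and 64.2 RPKM against 29.7 and 1.14, and Tcf25 at 236, 954 and 148 against 15.7 and 1.44. With entries summed, Fbxl5 was at 656, 271 and 332 RPKM against 52.8 and 1.06 (log2 -5.21), while Atl2 overlapped between groups (41.0, 1659 and 268 RPKM against 49.1 and 1.85, log2 -4.48). Without VC replicate 1, limma called Prex2, Pum2, Tcf25, Atl2, Fbxl5 and Rab7 lower (adjusted p from 7.7e-05 to 0.019), but that fit has 1 VC embryo, which is assumed to vary as the Control embryos do. Prex2 was also called without Control replicate 3 (limma adjusted p = 0.027).

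**Figure D3:**
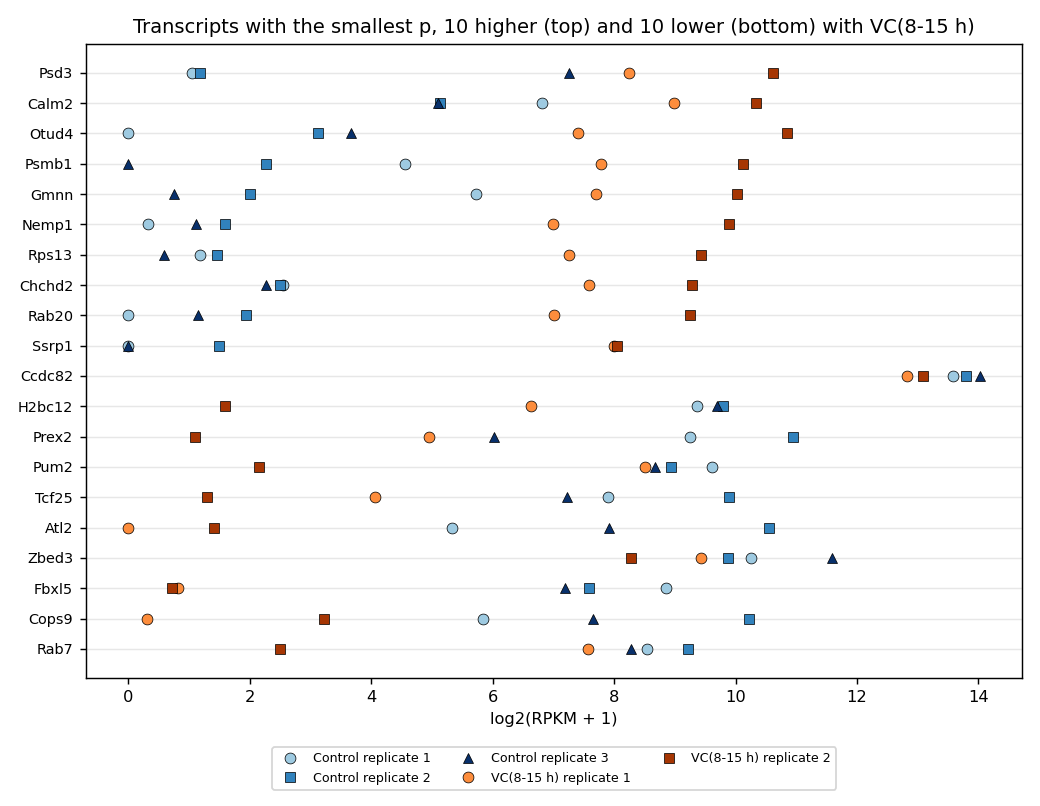
log2(RPKM + 1) of 20 transcripts in the 5 embryos, 10 higher (top) and 10 lower (bottom) with VC(8-15 h); blue symbols are Control, orange and brown VC(8-15 h), circles pool 1, squares pool 2 and triangles pool 3. The groups are apart in each row because the rule required it; VC replicate 2 is the outermost embryo in most rows, and Ccdc82 has the narrowest spread.

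Some transcripts were seen in one group alone. Of the 6283 tested, 135 reached 1 RPKM in both VC embryos and in no Control embryo, 55 of them at 10 RPKM or more in both. Another 107 reached it in all 3 Control embryos and in neither VC embryo, 27 of them at 10 RPKM or more in all 3. Over all possible pairs of the embryos, 75 to 543 transcripts were seen in that pair alone. For sets of 3 embryos the numbers were 38 to 607, and both group counts lie within these ranges. The highest of the VC-only set were Snrpd3, of the spliceosomal Sm core (0, 0.965 and 0 RPKM against 18.8 and 493), Adi1, of methionine salvage (0.330, 0.696 and 0.0439 against 87.4 and 428), Prr13 (0.498, 0.918 and 0.199 against 116 and 409), Ogdh (0, 0.595 and 0 against 135 and 282) and Zfp229 (0.326, 0.290 and 0.488 against 29.2 and 348). Ogdh, the 2-oxoglutarate dehydrogenase gene, had other entries in Control, and its sum was 0.0830, 57.5 and 0.983 RPKM against 152 and 284. The Control-only set was led by Fbxl5 NM_178729, Arntl2 (69.4, 355 and 36.7 RPKM against 0.0583 and 0.787), Hbegf (242, 83.4 and 24.4 against 0.342 and 0), Gyg, the glycogen primer gene (111, 154 and 53.3 against 0.177 and 0.266), and Chek1, of the replication checkpoint (26.9, 1.37 and 247 against 0.746 and 0.179). None of the 10 passed the adjusted threshold of limma (adjusted p from 0.31 to 1).

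Most genes of two-cell activation had higher values with VC. These are genes and families known to be transcribed in a burst at the two-cell stage. Of the 27 matched genes 16 were tested, as 18 transcripts, and 17 of the 18 were higher with VC against 50.0% of all transcripts tested; the median difference was 2.53 on the log2 scale. Both VC embryos lay above every Control embryo in 8 of the 18, where 8.88% of all transcripts did, and below in 0. At an unadjusted p under 0.05, limma had 3 of the 18 (Tcstv3, Pramel17 and Sp110), and none passed after adjustment. Transcripts under 1 RPKM in every Control embryo, as Tcstv3 and Tdpoz1 were, entered only because both VC embryos reached 1 RPKM. Their direction and separation were fixed by that rule. Of all transcripts tested, 135 entered in this way. The levels of the 30 entries summed to 468, 65.1 and 1109 RPKM in Control and to 2379 and 2676 with VC, so the groups did not overlap (exact permutation test, two-sided p = 0.2, the smallest possible). The 2 VC embryos, far apart in the number of transcripts detected, were close together in this sum, but partly through different entries. Sp110 NM_175397 was at 1103 RPKM in VC replicate 1 and 2.19 RPKM in VC replicate 2, while Tdpoz3 and Pramel16 were high only in VC replicate 2.

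Tcstv3, which entered through the VC embryos alone, was at 0.210, 0.332 and 0.168 RPKM in Control and at 101 and 240 with VC (log2 6.99, SE 2.95). Pramel17 was at 30.6, 30.8 and 2.05 RPKM against 143 and 429 (4.10, SE 1.87), and the Sp110 entry NM_030194, of a nuclear body protein, at 179, 18.7 and 108 against 429 and 350 (2.41, SE 1.21). The other 5 that separated were Tdpoz1 (at most 0.991 RPKM in Control, 17.8 and 99.3 with VC), Tdpoz2 (at most 3.22 against 32.1 and 213), Gm13043 (at most 5.34 against 19.4 and 93.2), Gm8300 (at most 4.73 against 189 and 33.7) and Gm5662 (at most 5.01 against 11.9 and 36.4). Members of the Tdpoz, Tcstv, Usp17l, Zscan4 and Pramel families are near copies, and the counting could assign their reads to the wrong copy.

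The remaining members did not separate the groups. The second Sp110 entry, NM_175397, was at 7.09, 3.50 and 427 RPKM in Control and at 1103 and 2.19 with VC. Zfp352, a two-cell zinc finger gene, was high in Control replicate 3 (125 RPKM) and VC replicate 1 (112 RPKM) and at most 2.83 RPKM elsewhere. Zscan4d, of the family that marks two-cell-like cells, was at 29.4 RPKM in Control replicate 3 and 9.32 RPKM in VC replicate 2 and listed at 0 in the others, while Zscan4c and Zscan4f exceeded 1 RPKM only in Control replicate 3 (26.2 and 32.2 RPKM). Tdpoz3 and Pramel16 were high only in VC replicate 2 (605 and 206 RPKM), and Arg2 only in Control replicate 3 (95.3 RPKM). Of the 18 tested transcripts, Tmem92 NM_001034896 was the 1 lower, at 106, 0 and 94.3 RPKM against 0 and 0. Entries at 1 RPKM in a single embryo, such as those of Zscan4c and Zscan4f, were not tested and are outside that count. Entries at 1 RPKM or more numbered 11, 8 and 16 in Control, of which 11, 8 and 12 were tested. With VC they numbered 18 and 17, of which 15 and 14 were tested. On the same 18 transcripts the median stayed positive when any 1 embryo was left out, from 1.61 without Control replicate 2 to 3.55 without VC replicate 1, with 12 to 16 of the 18 higher.

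**Figure D4:**
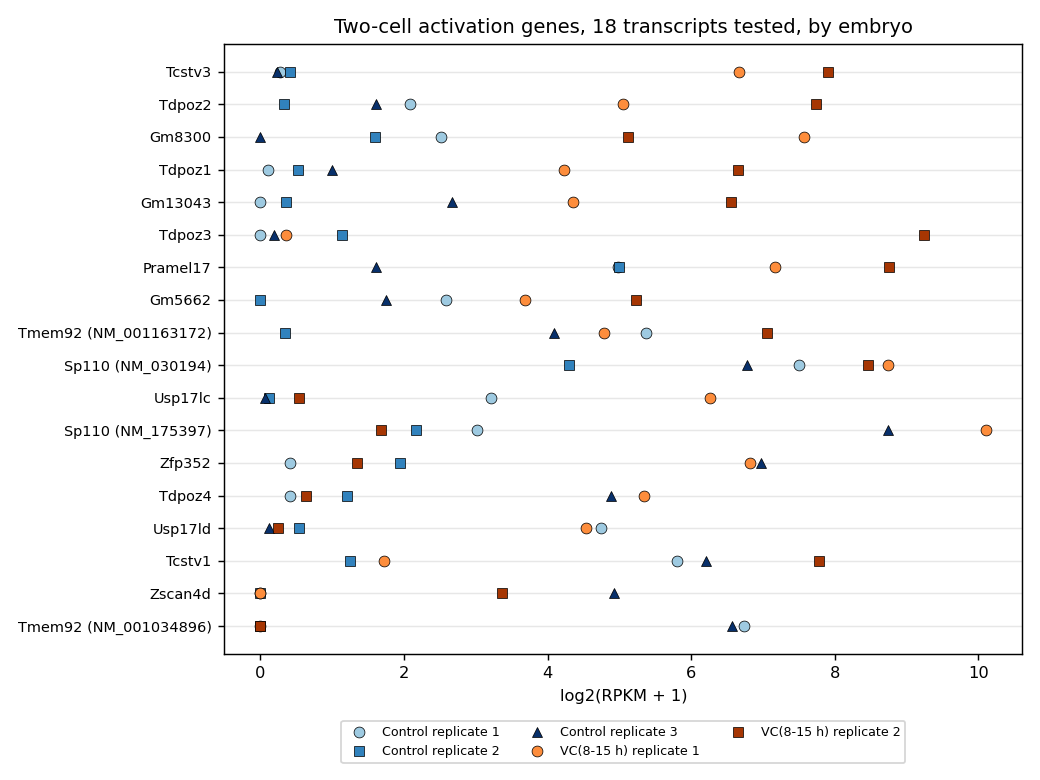
log2(RPKM + 1) of the 18 tested transcripts of two-cell activation genes in the 5 embryos, ordered by the difference between groups; blue symbols are Control, orange and brown VC(8-15 h), and points at the same value overlap. The top rows show both VC embryos to the right of all Control embryos, as for Tcstv3 (101 and 240 RPKM against at most 0.332), and the bottom row, a Tmem92 entry, shows the reverse.

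The upstream sequences of Pramel17 and Sp110 were compared because both genes separated the groups. The 250 bases before the RefSeq start (GRCm38.p6) are printed with capitals marking the longest run that the 2 windows share, 50 bases that end at the start itself. Pramel17 lies at chr4:101844023-101844272 and the first of 2 Sp110 starts at chr1:85603892-85604141, both on the minus strand.
Pramel17: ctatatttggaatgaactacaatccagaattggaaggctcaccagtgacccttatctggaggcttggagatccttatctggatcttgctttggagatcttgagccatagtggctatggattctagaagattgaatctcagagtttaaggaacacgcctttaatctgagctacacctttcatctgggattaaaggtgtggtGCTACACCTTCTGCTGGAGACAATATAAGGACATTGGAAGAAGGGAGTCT
Sp110: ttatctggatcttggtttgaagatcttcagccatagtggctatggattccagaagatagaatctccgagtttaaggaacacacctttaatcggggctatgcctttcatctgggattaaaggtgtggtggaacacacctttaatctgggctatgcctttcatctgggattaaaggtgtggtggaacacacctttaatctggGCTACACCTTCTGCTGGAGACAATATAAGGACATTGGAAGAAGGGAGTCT
The last 30 bases of the run (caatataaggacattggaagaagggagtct) were found, on either strand, in 21 of 32851 windows, or 0.0639%, belonging to 20 genes. The letters TAATCC, a core bound by homeodomain factors of the Otx and Obox type, matched once in Pramel17 and at 2 places in Sp110 on the opposite strand, and 6.25% of all windows hold them. Of the 20 genes 9 were in the files, Pramel17 and Sp110 among them, with 15 entries at 1 RPKM or more in any of the 5 embryos. Both VC embryos were above all Control embryos for 5 entries, 1 each of Pramel17, Sp110, Eif4a3l1, Gm21293 and Gm21312. Pramel17 and Sp110 were chosen because they separated. The entries of Eif4a3l1, Gm21293 and Gm21312 reached 1 RPKM in 1 embryo only and were not tested. The 8.88% of all tested transcripts that separated is thus no base rate for this count. In VC replicate 1 Gm21293 was at 0.0913 RPKM against at most 0.0662 in Control, and Gm21312 at 0.244 against at most 0.148, values of few reads. Whether the run bears on the VC difference was not tested. Eif4a3l1 was at 0.117, 0.185 and 0 RPKM in Control and at 52.7 and 0.774 with VC. Arih2 was at 0.470, 57.0 and 40.9 RPKM in Control and 15.8 and 0.853 with VC, and Sgk1 NM_001161848 was at 216, 0 and 3.54 RPKM against 12.7 and 2.93, both overlapping. The Gm4340, Gm21293, Gm21304 and Gm21312 entries, near copies of one another, were at most 0.295 RPKM in Control and 0.244 RPKM in VC replicate 1, and all but 1 of them were between 1.71 and 2.64 RPKM in VC replicate 2. Which of the 2 Sp110 starts gave the NM_030194 reads cannot be read from these values.

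Regulators of genome activation showed no common direction. Of 15 tested transcripts 9 were higher and 6 lower, with a median of 1.19 (0.26 without VC replicate 2 to 2.10 without Control replicate 3). Yap1 was at 84.6, 236 and 372 RPKM in Control and at 507 and 394 with VC, and Nr5a2, an orphan nuclear receptor gene, at 43.8, 1.24 and 48.3 against 64.9 and 92.0, both apart without passing the test. Obox5, a maternal homeobox gene, was at 419, 91.7 and 161 RPKM against 77 and 3.25 (log2 -3.34, SE 1.57), and Dppa2 at 52.0, 12.1 and 32.6 against 1.25 and 3.29. Dppa4 NM_001018002 was at 4880 RPKM in Control replicate 3 and at most 2.97 RPKM in the other embryos.

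For the subcortical maternal complex and other oocyte cytoplasm genes, 6 of 15 tested transcripts were higher and 9 lower, where 50.0% of all transcripts were higher, and 7 were higher and 8 lower without Control replicate 1, Control replicate 3 or VC replicate 2. The median was -1.48 (-2.50 without VC replicate 1, -0.45 without VC replicate 2 and -0.82 without Control replicate 3; 0.29 within pool 1 and -0.38 within pool 2), and 3 were lower at an unadjusted p under 0.05 (Zbed3, Omt2b and an entry of Omt2a) where 1.35% of all transcripts were; 3 transcripts lay below all Control embryos, as did 7.51% of all. Their summed level was 3721, 3053 and 9099 RPKM in Control and 2606 and 1975 RPKM with VC. Oog1, an oocyte gene with 2 near-identical entries, was at 160, 55.3 and 98.6 RPKM against 15.4 and 3.07 (log2 -3.57, SE 2.02). Dppa3, the maternal protector of DNA methylation also called Stella, was at 1.80, 190 and 39.6 RPKM against 319 and 146. With entries summed per gene the median of the list was -0.69. Omt2a NM_001164523 was at 341, 916 and 1885 RPKM against 420 and 26.9, and its other entry, NM_001111286, at 533, 106 and 584 against 84.7 and 1257.

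Genes that run the decay and translation of maternal mRNA were mixed, with 8 of 22 tested transcripts higher, 14 lower and a median of -0.34 (-1.19 without VC replicate 1, 0.19 without VC replicate 2). Btg4, the adaptor that brings the CCR4-NOT deadenylase to maternal mRNA, was at 579, 520 and 1338 RPKM in Control and at 169 and 178 with VC (log2 -2.08, SE 0.75). Its VC embryos agreed closely. Cnot7 NM_001271542, a catalytic subunit of that deadenylase, was at 380, 420 and 381 RPKM against 277 and 25.4, and Cnbp NM_013493, a nucleic acid binding protein gene, at 234, 7.09 and 64.6 against 256 and 668. Oocyte-secreted and zona pellucida genes had 4 of 7 higher (median 0.06, -0.26 without Control replicate 2 and 0.71 without VC replicate 2), and Kit was at 138, 103 and 88.9 RPKM against 63.7 and 98.1.

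Of 60 tested transcripts of ribosomal protein genes 42 were higher, where 50.0% of all transcripts were, with a median of 1.51 (0.42, and 32 higher, on the same entries without VC replicate 1, and 0.84 without Control replicate 3). Both VC embryos were above all Control embryos for 11 and below for 1 (Rpl32), against 8.88% and 7.51% of all transcripts. At an unadjusted p under 0.05, 5 were higher (among them Rps13, Rps15, Rpl6 and Rpl15), where 1.51% of all were. Rpl15 was at 8.81, 2.37 and 2.12 RPKM in Control and at 40.9 and 968 with VC, and Rpl6 at 0.148, 2.80 and 0.177 against 67.6 and 514. The summed level was 4608, 5308 and 1764 RPKM in Control, 4360 RPKM in VC replicate 1 and 14991 RPKM in VC replicate 2 (exact permutation p = 0.6). Rps27 (4085 RPKM) and Rpl34 (1730 RPKM) were listed at 0 in VC replicate 1, so the higher sum belonged to VC replicate 2 alone.

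Enzymes that use VC did not move together. For the H3K9 demethylases 5 of 10 tested transcripts were higher and 5 lower (median -0.15, -1.48 without VC replicate 1 and 0.49 without VC replicate 2). Kdm3b was the one that separated upward, at 0.207, 0.143 and 0.0103 RPKM in Control and at 3.42 and 33.2 with VC (log2 3.46, SE 2.04, limma adjusted p = 0.998; exact permutation p = 0.2 for this gene). Kdm3a NM_173001 separated downward, at 50.8, 113 and 59.3 RPKM against 24.1 and 17.9, while its entry NM_001038695 was at 3536 RPKM in Control replicate 2 and at most 7.05 RPKM elsewhere. Kdm5b, an H3K4 demethylase gene, was at 42.6, 214 and 89.1 RPKM against 132 and 29.3 (log2 -0.57, SE 1.52). Kdm4b and Kdm4d stayed under the detection rule and were not tested.

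The medians of other enzyme lists turned in direction with single embryos. The other JmjC demethylases had 5 of 9 higher (median 0.38, -1.64 without VC replicate 1 and 1.03 without VC replicate 2). The H3K9 methyltransferases and HP1 genes had 4 of 9 higher (median -1.05, -2.07 without VC replicate 1, 0.83 without VC replicate 2 and 0.43 without Control replicate 1). DNA methylation genes had 5 of 9 higher (median 0.07, -1.77 without VC replicate 1 and 1.40 without VC replicate 2), and TET and DNA demethylation genes 2 of 5 (median -0.12, -0.72 without Control replicate 2 and 0.74 without VC replicate 2). Tet3, the oocyte form of TET, was at 103, 37.1 and 163 RPKM in Control and at 57.8 and 106 with VC. Trim28, the corepressor that recruits H3K9 methylation, was at 161, 156 and 74.8 RPKM against 70.6 and 2.35, and Cbx3, an HP1 gene, at 67.0, 18 and 39.4 against 68.1 and 486. Both pairs of groups were apart, in opposite directions. Collagen, HIF and nucleic acid dioxygenases had 4 of 7 higher (median 0.31, -0.76 without Control replicate 2 and 0.87 without VC replicate 1), and the oxygen sensor Egln1 was at 77.2, 19.0 and 67.7 RPKM against 18.3 and 1.51.

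Genes for the uptake and recycling of VC were scarcely detected, with 1 of 4 tested transcripts higher (median -1.53, -2.40 to -0.12 over the embryos left out). The transporter gene Slc23a2 was at 0.637, 1.14 and 46.1 RPKM in Control and at 1.70 and 0.0956 with VC. Antioxidant enzymes had 6 of 11 higher (median 0.35, -0.95 without VC replicate 1 and 2.31 without VC replicate 2). Gclc, the rate-limiting enzyme of glutathione synthesis, was at 0.215, 0.765 and 0.837 RPKM against 60.2 and 143 (log2 5.89, SE 2.96), the 1 member at an unadjusted limma p under 0.05. Pluripotency factors had 4 of 6 higher (median 0.52, -0.26 without VC replicate 1 and 1.17 without VC replicate 2), with Lin28b at 0.0341, 2.05 and 0.627 RPKM against 27.6 and 12.5 and Pou5f1 at 52.6, 23.1 and 112 against 28.9 and 175. Apoptosis genes had 4 of 14 higher (median -0.90, -2.46 without VC replicate 1 and 0.90 without VC replicate 2) with no member apart, and RNA polymerase II subunits 2 of 7 (median -0.64, -1.36 to -0.15 over the embryos left out), of which Polr2c was at 57.3, 336 and 124 RPKM against 2.51 and 2.70.

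Of the highest entries listed here for each of the 2 VC embryos, only Ccdc82 was in both, and pairs of Control embryos were not compared in this way. Besides Ccdc82, the highest in VC replicate 1 were Ash2l NM_001080793 (2577 RPKM, of an H3K4 methyltransferase complex), Ccdc6 (1775), Jagn1 NM_001205025 (1608) and Hnrnpab (1530), and in VC replicate 2 Asb8 (8232 RPKM), 2 overlapping entries of Mapk8ip3 (6443 and 6071) and Ctnnd1 NM_001085453 (5319). These entries of Ash2l and Jagn1 were listed at 0 in VC replicate 2, and those of Asb8 and Mapk8ip3 in VC replicate 1; with entries summed Ash2l was at 179 RPKM in VC replicate 2. Of these genes only Ccdc6 was abundant throughout, at 1270, 1142 and 1583 RPKM in Control and 542 RPKM in VC replicate 2.

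Of the tested transcripts 2534 were detected in both VC embryos, 2624 in replicate 1 alone and 501 in replicate 2 alone. Of the 1984 detected in all 3 Control embryos, VC replicate 1 held 91.7% and VC replicate 2 held 70.8%. A transcript missing from 1 embryo and present in the other 4 was missing from VC replicate 2 in 473 cases and from VC replicate 1 in 57, against 177 to 305 for the Control embryos. Genes present in all Control embryos could differ by orders of magnitude between the VC embryos: Akt1 NM_001165894 was at 170, 409 and 48.6 RPKM in Control, 263 RPKM in VC replicate 1 and 0 in replicate 2, while Csnk1g2 NM_134002 was at 349, 1.86 and 52.8 RPKM, 0 in replicate 1 and 776 RPKM in replicate 2. For both, the 2 VC embryos lay on opposite sides of the Control mean.

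Within sequencing pools the VC embryo exceeded its Control partner by at least 1 on the log2 scale for 2487 transcripts in pool 1 and 1626 in pool 2, and 657 did so in both. That is 26.4% of the pool 1 set and 40.4% of the pool 2 set, where 25.9% and 39.6% of all transcripts passed in pools 2 and 1. Downward, 1766 and 1894 transcripts passed and 539 did so in both. A further 692 were higher in pool 1 and lower in pool 2, and 385 the reverse. The two-cell activation genes had median differences of 2.58 in pool 1 and 3.96 in pool 2, against 0.26 and 0.00 for all transcripts.

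**Figure D5:**
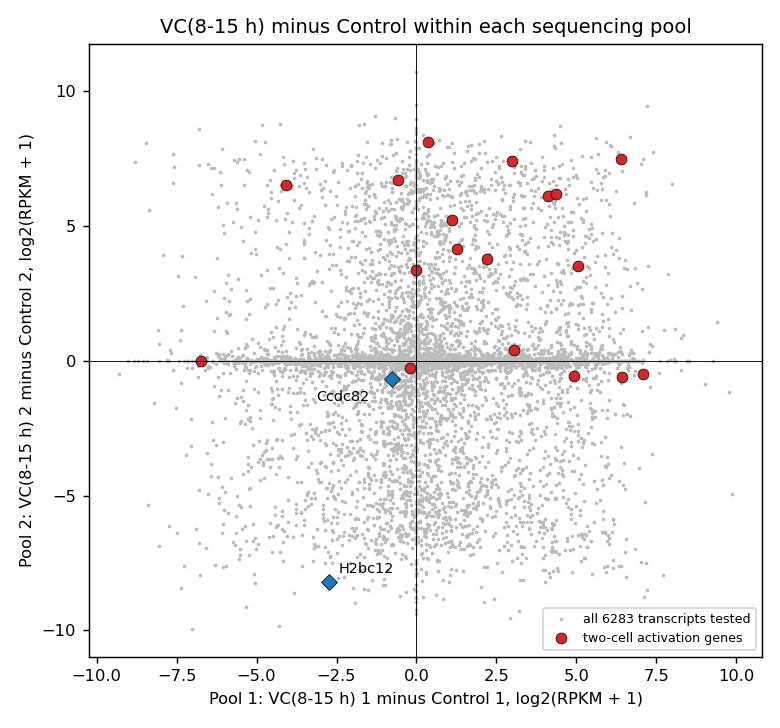
Difference VC(8-15 h) minus Control in log2(RPKM + 1) within pool 1 (horizontal) and pool 2 (vertical); grey points are the 6283 tested transcripts, red circles the two-cell activation genes and blue diamonds Ccdc82 and H2bc12. Grey points fill all quadrants (657 up in both pools, 539 down in both, 692 and 385 in opposite directions), while the 1 red circle below 0 in both pools, Usp17ld, lies close to 0.

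The late VC window was also applied to embryos that had first received 50 nM TSA from 0 to 8 h, and 3 embryos given both drugs in turn, which the study's text places in separate nuclear transfer experiments, can be set against 3 TSA(0-8 h) embryos, none of which enter the comparison above. Ccdc82 was at 14307, 15388 and 15406 RPKM with TSA alone and at 8989, 11806 and 8949 RPKM with TSA and VC (log2 -0.61; exact permutation test, two-sided p = 0.1, the smallest that 3 against 3 allow), again with no overlap. Two-cell activation genes summed to 1131, 1027 and 1002 RPKM with TSA and to 2899, 2820 and 1559 with TSA and VC (exact permutation p = 0.1). A single entry, Sp110 NM_175397, was at 4.77, 2.46 and 2.05 RPKM with TSA and at 1525, 1269 and 103 with TSA and VC. It made up most of the higher sum in replicates 1 and 2 of the embryos given both drugs. Of the 18 tested transcripts 13 were higher, where 64.9% of all transcripts were (median 1.55, against 0.61 for all). The subcortical maternal complex list summed to 18350, 10593 and 6518 RPKM against 5455, 3539 and 5312 (exact permutation p = 0.1), although 7 of its 15 tested transcripts were higher and their median was -0.26.

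Single transcripts mostly did not carry over. Of the 95 transcripts that were higher with VC alone before adjustment, 64.2% were also higher with TSA and VC than with TSA, and of the 85 lower ones 65.9% were higher, where 64.9% of all transcripts tested were. H2bc12 went the other way: it was at 6.08, 0.672 and 12.5 RPKM with TSA and at 140, 10.8 and 551 with TSA and VC. So did Btg4, lower with VC alone, at 195, 186 and 198 RPKM with TSA and at 451, 221 and 318 with TSA and VC, with no overlap. The difference between the VC effects with and without TSA was 9.67 on the log2 scale for H2bc12 (SE 2.24, limma adjusted p = 0.50), the smallest adjusted p of 8882 transcripts. In that interaction test 0 transcripts passed after adjustment by limma, 0.0% of those tested. Before adjustment 198 had a larger and 120 a smaller VC effect with TSA at p under 0.05, and 35 (0.394%) and 16 (0.18%) at p under 0.01. Aldoa NM_007438, of glycolytic aldolase, was at 82.6, 179 and 37.6 RPKM in Control, 12.8 and 1.21 with VC, at most 3.07 with TSA and 35.6 to 419 with TSA and VC, and Fbxo15, of an F-box protein, was at 4.22 to 26.5 RPKM in Control, 226 and 560 with VC, and 81.2 to 778 in the 6 embryos of that pair.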

How the data were processed

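RNA was purified from single two-cell embryos and its library amplified by PCR before single-end sequencing. By the study's methods, the authors trimmed reads, aligned them with TopHat to mm9 and counted reads on RefSeq transcripts; the deposited values are RPKM, 1 per entry and embryo. Depth was recovered from the steps of the RPKM values, and gave whole numbers for 99.9% or more of each embryo's reads; 3 reads on a 1000-base transcript correspond to 0.221 to 0.553 RPKM in the 5 embryos, a floor that covers counting error only.

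Values were taken as log2(RPKM + 1). Transcripts at 1 RPKM or more in at least 2 of the 5 embryos were fitted with limma 3.58.1 in R 4.3.3 (eBayes with trend, Benjamini-Hochberg over the 6283 tested, threshold 0.05), in place of the study's count-based test because the deposited unit is RPKM. The fit was checked on simulated data. Summed levels and single genes were compared by exact permutation tests. The VC effects with and without TSA were compared by a limma interaction over 11 embryos. Neither the labels nor the study's text says that the embryos of these 2 groups came from separate experiments, so p-values measure the spread between these embryos, which may be technical. Same-numbered embryos share a pool, which the labels give. The correlation of their deviations was 0.0585 in pool 1 and 0.120 in pool 2, but VC replicate 1 and Control replicate 3, which share no pool, had 0.0682. With 2 VC embryos, the deviations of one mirror those of the other, so these values are not independent. Since the shared pool pairs same-numbered embryos, the blocked values are given.

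Transcripts were named by rule: the 10 smallest p per direction among those with groups apart, the 5 highest present in one group alone, up to 4 of the highest in each list, the genes the study discusses, the extremes of each VC embryo, and the 3 smallest interaction p per direction. Further list members, and the transcripts beside the promoter run, were named after their values were seen. The 20 lists held 391 genes, of which 383 matched. The members and lists were chosen with earlier results of these data known. Coordinates are from GENCODE vM1 on mm9, and promoter sequences from RefSeq on GRCm38.p6, which held 3 of the 4 genes looked up. Alternatives covered the pseudocount, filters, scaling, the replicate block, limma-voom on recovered reads and each embryo left out.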

Additional observations from a re-analysis of the deposited data

How the results depend on the processing

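The number of transcripts called higher was 0 and of those called lower 2, and both depended on the processing. Limma-voom gave 3 higher and 4 lower, only Ccdc82 being shared. An adjusted p under 0.1 gave 1 higher, and unadjusted thresholds of 0.01 and 0.05 gave 21 and 95 higher and 26 and 85 lower. The lower count was 0 with the filter within either group, with no filter, without the eBayes trend, with entries summed, with median-ratio scaling, with quantile normalization and with the replicate block, and 1 in a single fit of all 14 embryos. Leaving out 1 embryo gave 0 to 10 higher and 0 to 23 lower, the highest of both without VC(8-15 h) replicate 1, where the lone VC embryo is assumed to vary like Control. Quantile normalization sets Ccdc82, first in rank in every embryo, to a difference of 0 by construction; causes of the other changes were not tested. At p under 0.01 the share of higher calls was 44.7%, but 79.2% with median-ratio scaling, 82.2% without the trend, 88.2% with the filter within either group, 56.8% with no filter, 68.0% with limma-voom and 76.0% with all 14 embryos. It was 35.7% with a pseudocount of 0.1, 37.5% with the block, and 17.4% without VC(8-15 h) replicate 2 to 60.0% without Control replicate 2 over the left-out embryos. The interaction gave 1 larger effect with a pseudocount of 0.1 and 0 to 3 when 1 embryo was left out. With the replicate block 9 transcripts were higher and 15 lower at p under 0.01, and apart from Ccdc82 and H2bc12 it changed no call. The difference in detected transcripts ran from -1496 to 1524 over the left-out embryos. None of 320 alternative values of the 20 named transcripts changed sign, and 22 lost and 7 gained significance. The rule that chose these 20 transcripts, with the groups apart, fixes their sign when an embryo is left out or the pseudocount, filter or trend is changed. The pseudocount of 0.1 moved the median of the two-cell activation genes to 3.34 from 2.53. The medians of all transcripts moved to 0.16 with limma-voom, 0.42 with the filter within either group, 0.13 with the block, 0.12 with a pseudocount of 0.1, -0.34 without Control replicate 2, -1.55 without VC(8-15 h) replicate 1 and 0.93 without VC(8-15 h) replicate 2. The spread between embryos of a group (median residual SD 2.31 on the log2 scale) limits which differences could be detected, and a 3-read floor of up to 0.553 RPKM limits low transcripts.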
